A study of Homo sapiens with 12 samples.

Results

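The NRF2 antioxidant target genes described here are 10 transcripts that respond to the transcription factor NRF2: HMOX1, NQO1, GCLM, GCLC, TXNRD1, TXN, SRXN1, OSGIN1, PIR and ME1. They were chosen by name, with earlier results of these data known. Every probe set with 1 of these symbols in the platform's gene table was taken, which gave 25 probe sets among 49395. With the brightest probe set standing for each gene, these are 10 of the 13909 genes tested. All 25 lay above the signal used as a filter (a log2 mean of 4.48 over the 12 arrays), and no probe set pairs a member with a further symbol. Expression was measured on PrimeView arrays, 3 in each of 4 groups, in THP-1, an established human monocytic leukaemia line. Cells were turned into macrophage-like cells with 100 ng/ml of the phorbol ester PMA for 48 hours, after which 1 group stayed at 37 °C and another was moved to 40 °C, a temperature of fever. Harvests at 40 °C were taken after 2, 8 and 24 hours, and which of them the arrays hold is not stated. In the other experiment the cells, differentiated at 40 °C, received a 2′-O-methylated hairpin inhibitor by nucleofection together with the pmaxGFP plasmid, and were sorted for GFP 24 hours later. The treated group is labelled siThermomir, and the protocol lists miR-142, miR-143, ThermoMIR-1 and a control that is not human as possible targets, without saying which was used on the arrays. The comparison group is labelled WT and control, and whether it was nucleofected with the control inhibitor is not stated. Whether replicates were separate cultures is not stated, and the spread behind each p-value may therefore be technical.

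NRF2, encoded by NFE2L2, is held in the cytoplasm and marked for destruction by KEAP1 under resting conditions. Oxidants and electrophiles modify cysteines of KEAP1, after which NRF2 accumulates, pairs with small MAF proteins and binds antioxidant response elements near genes of glutathione and thioredoxin metabolism, quinone reduction, heme breakdown and NADPH supply. BACH1 occupies the same elements as a repressor. In macrophages the pathway limits oxidative damage and is known to restrain inflammatory gene expression.

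The sequence before the start of each gene was searched for the core of the antioxidant response element, TGACNNNGC, and for the related AP-1 site, TGANTCA, on both strands, since members that rose together might share such letters. RefSeq's promoter table (GRCh38.p14, 250 bases before to 50 after each start) held 10 windows for 9 of the 10 genes, and none for HMOX1. Sequence outside these windows was not searched, so a window without a match does not show that the gene lacks an element. The core was present in 5 of the 10 windows, those of GCLM, ME1, PIR and both TXNRD1 starts, and in 13.35% of all 35116 windows. TGANTCA was present in 3 windows, of ME1, OSGIN1 and PIR, and in 7.71% of all windows. In ME1 and PIR the 2 motifs overlap in the letters TGACTCAGC, which lie at -137 to -129 from the ME1 start and, on the other strand, at 27 to 35 after the PIR start. The GCLM match, TGACTAAGC on the other strand, lies at -34 to -26. The stretches below are shown because they hold these matches or, for NQO1 and SRXN1, because those are the members that differed most with the inhibitor and hold none in this window. All are written from 5′ to 3′ on the gene's own strand, with matches in capitals. Further core matches on the other strand are not shown. TGACGGTGC lies at 12 to 20 after the ME1 start, and TGACGGAGC at -8 to 1 from the upstream TXNRD1 start. The positions are chr6:83431052-83431301 on the minus strand for ME1, chr1:93909431-93909680 on the minus strand for GCLM, chr12:104215669-104215698 and chr12:104286919-104286948 on the plus strand for TXNRD1, chrX:15493289-15493318 on the minus strand for PIR, chr16:83953131-83953160 on the plus strand for OSGIN1, chr16:69726561-69726810 on the minus strand for NQO1 and chr20:653201-653450 on the minus strand for SRXN1.
ME1: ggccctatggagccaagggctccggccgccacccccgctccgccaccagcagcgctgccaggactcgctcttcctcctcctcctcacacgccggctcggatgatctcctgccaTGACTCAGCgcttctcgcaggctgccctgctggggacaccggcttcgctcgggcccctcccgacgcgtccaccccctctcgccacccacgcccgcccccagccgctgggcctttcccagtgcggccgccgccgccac
GCLM: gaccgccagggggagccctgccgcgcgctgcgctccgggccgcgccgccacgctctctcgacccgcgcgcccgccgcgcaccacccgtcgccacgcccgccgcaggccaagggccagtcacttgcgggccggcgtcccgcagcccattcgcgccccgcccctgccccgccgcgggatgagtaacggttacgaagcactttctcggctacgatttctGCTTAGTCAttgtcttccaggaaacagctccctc
TXNRD1 upstream start: tacacgggctaTGACTTCGCtgttgtcacc
TXNRD1 downstream start: agtggatttctGCTTTGTCAttctgactct
PIR: ggccgcgaagcGCTGAGTCAcggtgaggct
OSGIN1: acgggcccctgcTGACTCAcgcttatgaaa
NQO1: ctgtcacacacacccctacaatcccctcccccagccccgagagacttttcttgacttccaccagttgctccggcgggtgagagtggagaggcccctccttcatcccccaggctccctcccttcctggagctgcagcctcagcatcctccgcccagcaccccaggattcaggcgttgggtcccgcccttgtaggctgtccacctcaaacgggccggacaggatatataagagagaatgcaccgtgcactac
SRXN1: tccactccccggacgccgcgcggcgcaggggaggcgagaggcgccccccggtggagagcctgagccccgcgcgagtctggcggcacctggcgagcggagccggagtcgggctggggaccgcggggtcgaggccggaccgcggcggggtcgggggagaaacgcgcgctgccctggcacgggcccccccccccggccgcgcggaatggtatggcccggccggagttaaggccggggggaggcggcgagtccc
A match of letters is a description of the window and was not tested as a binding site.

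The median log2 value of an array was 5.72 to 5.87, and replicates correlated across probe sets with r between 0.9939 and 0.9984. All 8 monocyte or macrophage markers on the list passed the filter, CD68 at 10.79 to 12.42 and SPI1 at 5.42 to 6.12 in the 4 group means. Erythroid globins HBE1 and HBZ lay below the filter, no erythroid gene was called, and of the fibroblast and epithelium list KRT8 alone was called, with the inhibitor. Granule genes of promyelocytes were lower at 40 °C and with the inhibitor, 4 of the 4 tested in each comparison, with MPO below the filter. Their summed log2 level was 9.93 to 10.04 at 37 °C, 9.37 to 9.47 at 40 °C, 10.79 to 10.94 in controls and 8.96 to 9.18 with the inhibitor. The summed macrophage level was 13.30 to 13.32, 13.51 to 13.62, 13.80 to 13.85 and 13.56 to 13.57 in the same order, with 6 of 8 markers higher and 1 lower at 40 °C and 2 higher and 4 lower with the inhibitor. The lymphocyte list, of which only NKG7 was called, in the inhibitor comparison, summed to 7.63 to 7.88 in the first 3 groups and 8.24 to 8.34 with the inhibitor. The poly-A spikes, bacterial RNAs added before labelling, averaged 7.85 to 7.90 at 37 °C, 7.92 to 7.98 at 40 °C, 6.98 to 7.65 in controls and 5.50 to 6.08 with the inhibitor. The 3 prime GAPDH probe set exceeded the 5 prime one by 0.36 to 0.40, 0.36 to 0.56, 0.99 to 1.06 and 0.62 to 0.78 in that order, and for ACTB by 1.50 to 1.57, 1.38 to 1.82, 2.36 to 2.53 and 2.56 to 2.88. The part of cell state, labelling and RNA quality in the member differences was not tested. A fit with the spike level as a covariate is given below, but that level did not overlap between the groups of either comparison. Such a fit cannot separate spike level from group, so a call lost or kept in it does not settle where the difference comes from. In such bulk samples fewer cells of a type and less RNA per cell cannot be told apart.

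The first comparison asked how the targets differ between 40 °C and 37 °C. HMOX1, NQO1, PIR and ME1 rose, by 1.14-fold to 1.58-fold, and GCLC and TXNRD1 fell by small amounts, while GCLM, TXN, SRXN1 and OSGIN1 did not pass the test. So 4 of 10 members were called higher, where 21.6% of all genes tested were, and 2 lower, where 17.7% were, or 6 against 39.3% in either direction (limma, Benjamini-Hochberg adjusted p under 0.05 over 13909 genes). The groups did not overlap for the same 6 members, against 49.5% of all genes, 27% higher and 22.5% lower. The median log2 difference was 0.08 over the members and 0.01 over all genes.

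NQO1, the quinone reductase that is the classic readout of NRF2 activity, read 10.05, 10.13 and 10.16 on the 3 arrays at 37 °C. At 40 °C it read 10.82, 10.78 and 10.73. Every array at 40 °C was above every array at 37 °C. The difference was 0.66 on the log2 scale (SE 0.05, adjusted p = 5.06e-05), or 1.58-fold, and NQO1 ranked at 277 among 13909 genes ordered by increase. Its second probe set, taken on its own, was also called higher, by 0.55 (SE 0.06).

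HMOX1, which breaks heme down into biliverdin, iron and carbon monoxide, read 9.23, 9.35 and 9.22 at 37 °C and 9.75, 9.83 and 9.78 at 40 °C. Again no array overlapped. The increase was 0.52 (SE 0.05, adjusted p = 0.000183), or 1.43-fold. All 3 HMOX1 probe sets were called higher when every probe set was tested on its own, by 0.41 to 0.52.

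PIR, an iron-binding nuclear protein, read 7.22, 7.40 and 7.14 at 37 °C and 7.93, 7.91 and 7.91 at 40 °C. The increase equalled that of NQO1 at 0.66 (SE 0.07, adjusted p = 0.000196). The arrays at 37 °C were the more spread of the groups, with an SD of 0.13 against 0.01. PIR has 1 probe set.

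ME1, the cytosolic malic enzyme that makes NADPH, read 8.28, 8.16 and 8.24 at 37 °C and 8.33, 8.46 and 8.47 at 40 °C. The groups lay close without overlapping, and the difference was 0.19 (SE 0.06, adjusted p = 0.0288). The call was lost without replicate 2 at 37 °C (0.16, adjusted p = 0.0852), replicate 3 at 37 °C (0.20, 0.0638), replicate 2 at 40 °C (0.17, 0.0903) or replicate 3 at 40 °C (0.17, 0.0935). The dimmer ME1 probe set differed by -0.03 (SE 0.07) and was not called, and the mean of both gave 0.08 (adjusted p = 0.264). After quantile normalization the adjusted p was 0.0564.

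Of TXNRD1, TXN and SRXN1, only TXNRD1 was called at 40 °C, and it fell. TXNRD1, the selenoprotein that reduces thioredoxin with NADPH, read 10.66, 10.65 and 10.66 at 37 °C and 10.54, 10.42 and 10.43 at 40 °C. All arrays at 40 °C were lower, by 0.19 in the mean (SE 0.05, adjusted p = 0.0145). Without replicate 2 or replicate 3 at 40 °C the adjusted p was 0.0517 for each, with differences of -0.17 and -0.18, and with the poly-A spike level as a covariate it was 0.117. TXN, the small disulfide reductase thioredoxin, differed by -0.03 (SE 0.04, adjusted p = 0.689). The other 4 TXN probe sets were lower on every array at 40 °C, by 0.09 to 0.13, and none was called. SRXN1, sulfiredoxin, which repairs overoxidised peroxiredoxins, read 7.87, 8.02 and 7.92 against 8.09, 8.09 and 8.02 and overlapped at 8.02. Its difference of 0.13 (95% interval 0.01 to 0.25) had an adjusted p of 0.0929, which was 0.0422 without replicate 2 at 37 °C.

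Of the glutamate-cysteine ligase subunits, which catalyse the first step of glutathione synthesis, the catalytic GCLC was lower by 0.18 (SE 0.04, adjusted p = 0.0117), at 8.98, 8.92 and 8.98 at 37 °C and 8.80, 8.77 and 8.77 at 40 °C. That holds for the brightest of 4 probe sets. The other 3 differed by -0.01, 0.02 and 0.09 and were not called, and the mean of all 4 gave -0.02 (adjusted p = 0.702). With the spike covariate the difference was -0.15 (adjusted p = 0.226). In that fit the 4 members called higher remained so and none was called lower, where 6.89% and 9.49% of all genes were. The modifier subunit GCLM differed by 0.03 (95% interval -0.09 to 0.16), and OSGIN1, an oxidative stress-induced growth inhibitor, by 0.04 (-0.11 to 0.19), and neither passed.

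**Figure D1:**
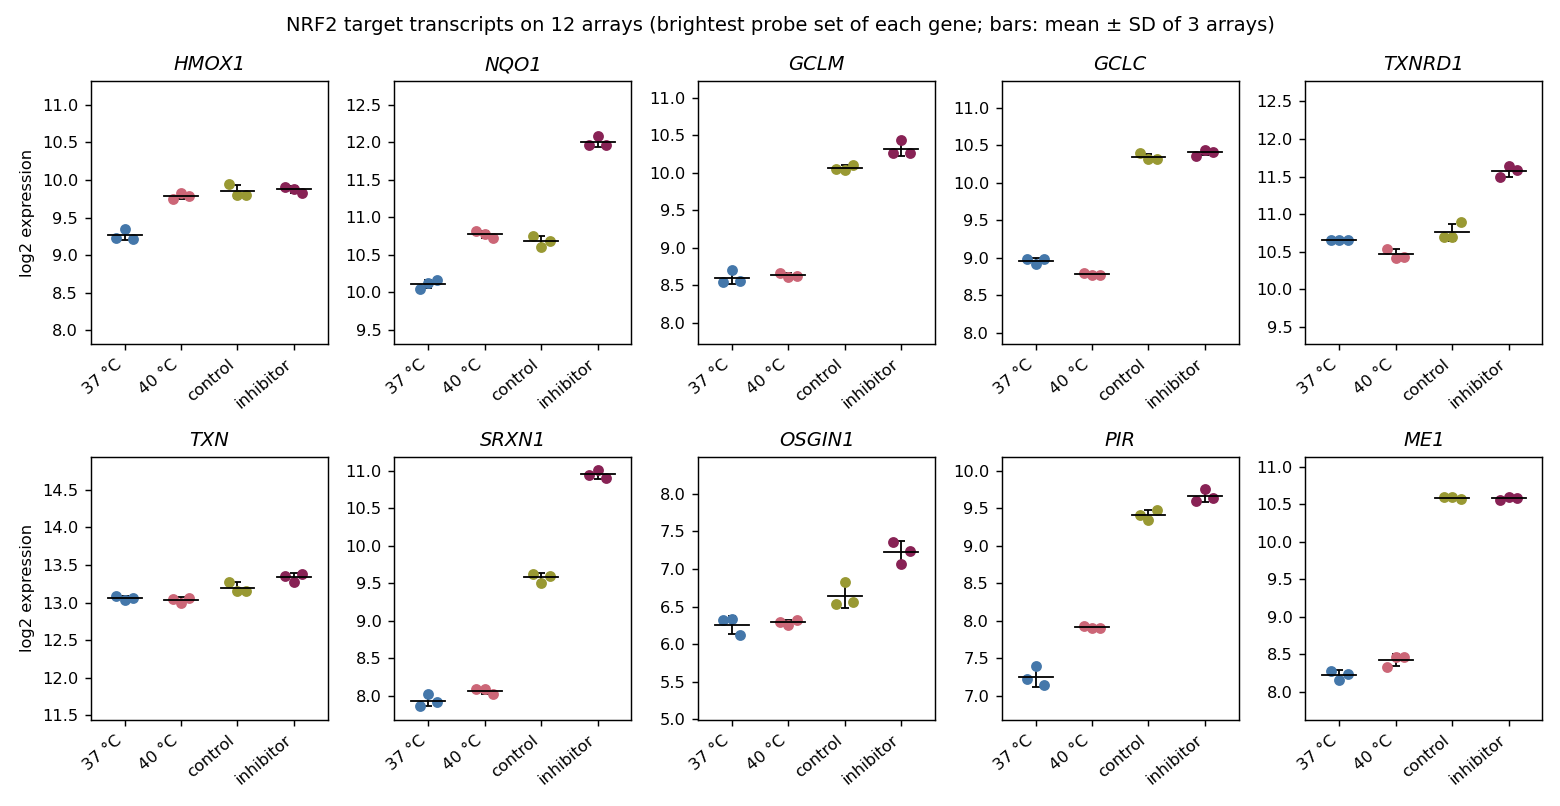
Log2 expression (vertical axis, the same span of 3.5 in every panel) of the brightest probe set of each gene on the 3 arrays of each group; points are arrays, horizontal lines group means and bars 1 SD. HMOX1, NQO1 and PIR step up from 37 °C to 40 °C, NQO1, SRXN1, TXNRD1 and OSGIN1 from control to inhibitor, and GCLM, GCLC, SRXN1, PIR and ME1 sit at least 2-fold higher in the controls of the inhibitor experiment than at 40 °C.

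The second comparison asked what differs between the group labelled siThermomir, called the inhibitor group here, and its control. SRXN1 and NQO1 rose by 2.58-fold and 2.51-fold, TXNRD1 by 1.75-fold and OSGIN1 by 1.49-fold, and PIR and GCLM rose by 1.19-fold each. HMOX1, TXN, GCLC and ME1 were not called, and none of the 10 was called lower. At 6 of 10, the members called higher compare with 25.6% of all genes, and the 0 called lower with 19.6% (45.2% in either direction). At an unadjusted p under 0.05 these counts were also 6 and 0, and those at 40 °C were 5 and 2. The share of all genes at that threshold was not counted. The groups did not overlap for these 6, all higher, against 54.1% of all genes, 31.2% higher and 22.9% lower. The median log2 difference was 0.25 over the members and 0.09 over all genes. Because the members were chosen with earlier results known, their counts beside those of all genes are descriptive in both comparisons.

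SRXN1 read 9.63, 9.51 and 9.60 on the control arrays and 10.94, 11.01 and 10.90 on the inhibitor arrays. The nearest arrays of the groups were more than 1 log2 unit apart. The difference was 1.37 (SE 0.06, adjusted p = 1.15e-05), which ranked at 20 among 13909 genes ordered by increase. Like PIR, SRXN1 has no further probe set. NQO1 read 10.75, 10.61 and 10.68 in controls and 11.97, 12.08 and 11.97 with the inhibitor. It ranked at 24, with a difference of 1.33 (SE 0.07, adjusted p = 1.51e-05), and its second probe set rose by more, 3.11-fold (difference 1.64, SE 0.07). These were the members that were also called with the spike level as a covariate in the model, a fit in which 0.424% of all genes were called higher and 1.35% lower. SRXN1 then differed by 1.32 (SE 0.18, adjusted p = 0.0346) and NQO1 by 1.26 (SE 0.19, adjusted p = 0.0435).

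TXNRD1 read 10.70, 10.69 and 10.89 in controls and 11.49, 11.64 and 11.58 with the inhibitor. Control replicate 3 was the highest of its group and still below every inhibitor array. The difference was 0.81 (SE 0.08, adjusted p = 0.000193). Both other TXNRD1 probe sets are dimmer, at means of 6.40 and 6.27, their groups overlap, and their differences of 0.33 and 0.47 (SE 0.18 each) were not called. With the spike covariate TXNRD1 differed by 0.70 (adjusted p = 0.17).

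TXN gave the reverse picture, since the probe set that stands for the gene was the exception. It read 13.28, 13.16 and 13.16 in controls and 13.36, 13.28 and 13.38 with the inhibitor, overlapped at 13.28, and differed by 0.14 (95% interval -0.01 to 0.29, adjusted p = 0.112). The other 4 TXN probe sets, at means of 12.25 to 12.54, did not overlap and were each called higher, by 0.31 to 0.43, in the fit of every probe set. The mean of the 5 gave 0.32 (SE 0.06, adjusted p = 0.00235). TXN was also called in the fit of all 12 arrays, with array weights and with trend and robust eBayes (adjusted p from 0.00236 to 0.0354). The suffix of these 4 marks probes that also match other sequences closely, so part of their signal may come from other transcripts. The HMOX1 probe set with the smallest difference at 40 °C, 0.41, bears the same suffix. A further suffix marks probes shared by several transcripts. It is borne by the only SRXN1 probe set, the second NQO1 probe set and the brightest probe sets of TXNRD1 and TXN. Part of their signal may likewise come from other transcripts.

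OSGIN1 read 6.54, 6.83 and 6.56 in controls and 7.36, 7.07 and 7.24 with the inhibitor, a difference of 0.58 (SE 0.11, adjusted p = 0.0035). Its second probe set rose by 0.79 (SE 0.09). The spike covariate left OSGIN1 at 0.87 (SE 0.28, adjusted p = 0.171).

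GCLM read 10.05, 10.04 and 10.11 in controls and 10.26, 10.43 and 10.26 with the inhibitor, higher by 0.25 (SE 0.07, adjusted p = 0.0202). Its dimmer probe set differed by more, from 7.22, 7.15 and 7.14 to 7.95, 8.01 and 7.92, that is by 0.79 (SE 0.07). Both GCLM probe sets separated the groups, and the mean of both rose by 0.52. PIR read 9.41, 9.34 and 9.47 against 9.59, 9.75 and 9.64, higher by 0.25 (SE 0.07, adjusted p = 0.019). Calls of these smaller differences depended on single arrays. GCLM was not called without control replicate 1 (adjusted p = 0.0636) or 2 (0.06), nor PIR without control replicate 1 (0.0541) or 2 (0.0627), with differences of 0.22 to 0.26. With the spike covariate GCLM differed by 0.31 (adjusted p = 0.471) and PIR by 0.18 (0.686).

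GCLC probe sets moved in opposite directions with the inhibitor. The brightest, which stands for the gene, read 10.39, 10.31 and 10.32 in controls and 10.36, 10.44 and 10.41 with the inhibitor, a difference of 0.06 (95% interval -0.07 to 0.20) that was not called. A second read 9.92, 9.77 and 10.02 against 9.12, 9.44 and 9.50, lower by 0.55 (SE 0.12, adjusted p = 0.00885 over every probe set). Another fell by 0.54 (SE 0.09, adjusted p = 0.00242), and the dimmest rose from 5.50 ± 0.02 to 6.13 ± 0.16 (SD, n = 3 each; adjusted p = 0.00146). Their mean differed by -0.10 (adjusted p = 0.216), so no direction is given for GCLC as a gene.

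HMOX1 and ME1 differed least. HMOX1 read 9.94, 9.80 and 9.80 in controls and 9.91, 9.88 and 9.83 with the inhibitor, and its difference of 0.03 had a 95% interval of -0.12 to 0.18. Its other probe sets differed by -0.06 and 0.03. ME1 read 10.60, 10.59 and 10.57 against 10.55, 10.60 and 10.58, a difference of -0.01 (95% interval -0.13 to 0.11). The dimmer ME1 probe set was higher on every inhibitor array, by 0.22 (SE 0.09), and was not called.

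**Figure D2:**
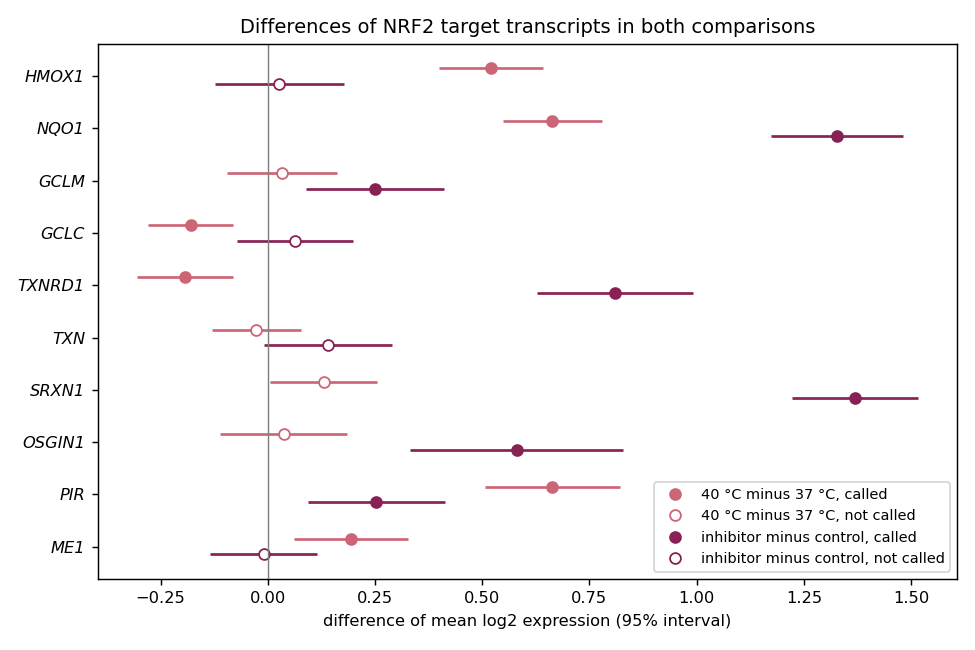
Difference of mean log2 expression (horizontal axis) with its 95% interval for each of the 10 genes, at 40 °C against 37 °C and with the inhibitor against control; filled points passed an adjusted p of 0.05 and open points did not. SRXN1 (0.13 and 1.37) and TXNRD1 (-0.19 and 0.81) lie farthest apart between the comparisons, and HMOX1 (0.52 and 0.03) lies higher at 40 °C.

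Tested 1 probe set at a time over 44988 probe sets, 6 of the 25 member probe sets were called higher at 40 °C, where 13% of all were, and 2 lower, where 11.9% were. With the inhibitor 14 were called higher, against 14.9% of all, and 2 lower, both of GCLC, against 15.4%. Probe sets of 1 gene share their RNA and often their probes, so these counts are not independent members.

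**Figure D3:**
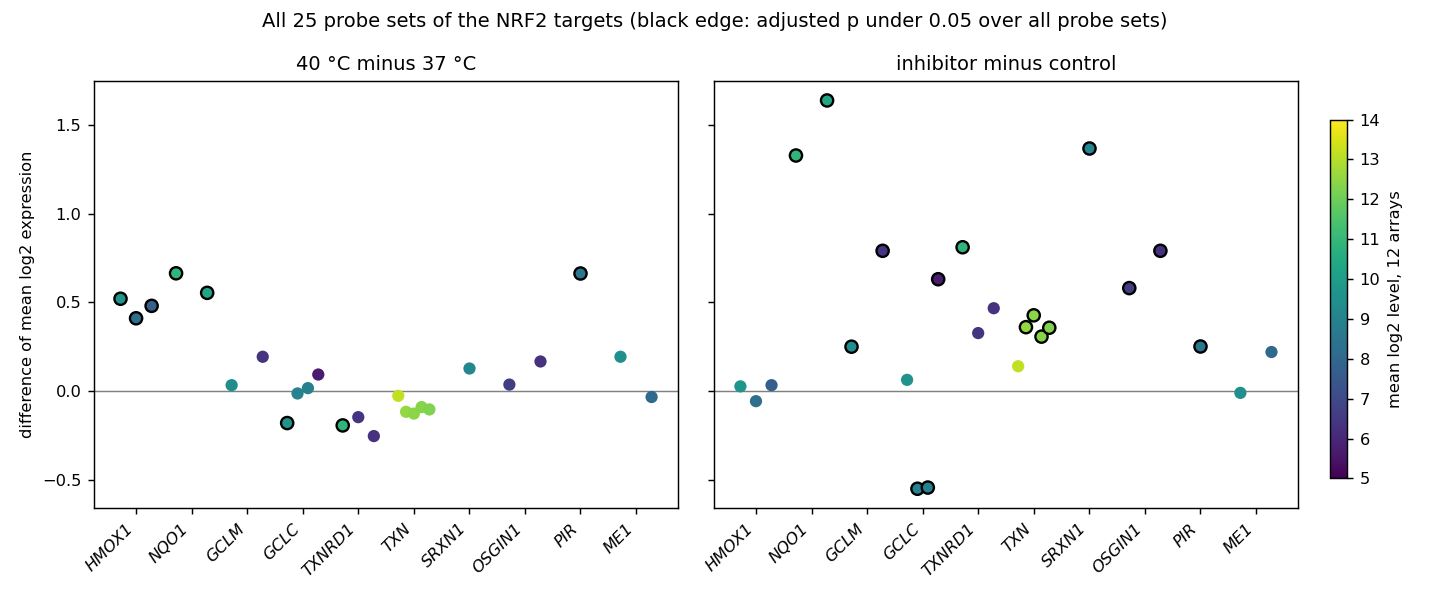
Difference of mean log2 expression (vertical axis) of all 25 probe sets, grouped by gene and ordered from brightest to dimmest within a gene, for both comparisons; colour gives the mean log2 level over 12 arrays and a black edge an adjusted p under 0.05 over all probe sets. With the inhibitor the GCLC probe sets lie on both sides of 0, from -0.55 to 0.63, while all 5 TXN probe sets lie above it.

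The difference between both effects was tested directly, in 1 fit of all 12 arrays added after the data had been seen. The experiments share no arrays. The inhibitor difference exceeded the temperature difference for SRXN1 by 1.24 (SE 0.08, adjusted p = 2.54e-07), for TXNRD1 by 1.00 (SE 0.09, 3.67e-06), for NQO1 by 0.66 (SE 0.08, 3.18e-05), for OSGIN1 by 0.54 (SE 0.13, 0.00511) and for GCLC by 0.24 (SE 0.06, 0.0078). It was smaller for HMOX1, by -0.49 (SE 0.08, adjusted p = 0.000333, and 0.0757 with the spike covariate), for PIR, by -0.41 (SE 0.10, 0.00459), and for ME1, by -0.20 (SE 0.07, 0.0396). In all 5 of 10 members were called one way and 3 the other, where 23.1% and 21.1% of all genes were (44.2% together). With the spike covariate 3 calls remained, those of SRXN1, TXNRD1 and NQO1. GCLM (0.22, adjusted p = 0.06) and TXN (0.17, 0.0804) did not pass. With probe sets averaged both were larger and called, GCLM at 0.41 (adjusted p = 0.00692) and TXN at 0.41 (0.000118). Both were also called after quantile normalization (0.0046 and 0.0376) and with trend and robust eBayes (0.0257 and 0.00367), GCLM with the 50th percentile filter (0.041) and TXN with array weights (0.00951). GCLM passed without inhibitor replicate 3 (0.0489), and TXN without control replicate 1 (0.0342) or inhibitor replicate 2 (0.0413). The ME1 call was kept only without inhibitor replicate 2, replicate 1 at 37 °C or replicate 1 at 40 °C, and without any of the other 9 arrays its adjusted p was 0.0598 to 0.0971. With the mean of the probe sets the GCLC and ME1 contrasts changed sign, to -0.079 and 0.025, and neither was called.

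Levels also differed between the experiments, which is described here without a test because nucleofection, sorting and handling cannot be told apart from the groups. Control cells of the inhibitor experiment had at least 2-fold higher levels than cells at 40 °C for 5 of 10 members, GCLM (2.70-fold), GCLC (2.95-fold), SRXN1 (2.85-fold), PIR (2.81-fold) and ME1 (4.49-fold), where 5.3% of all genes did. The groups did not overlap for 8 members, all higher in controls, against 37.5% of all genes. HMOX1 and NQO1 overlapped, at differences of 0.06 and -0.10, and the second NQO1 probe set was lower in controls by 0.66. The dimmest GCLC probe set (-0.13) did not share the difference of the other 3 (1.41 to 1.56), and the dimmer TXNRD1 probe sets were lower in controls, by 0.82 and 0.50. GAPDH and ACTB 3 prime to 5 prime differences, given above, were also larger in this experiment.

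Ordered by level, SRXN1 had the widest range of group means, 8.07-fold from 37 °C (7.94 ± 0.08) through 40 °C (8.07 ± 0.04) and control (9.58 ± 0.06) to inhibitor (10.95 ± 0.06; SD, n = 3 each), and only its 37 °C and 40 °C arrays overlapped. PIR took the same order over 5.30-fold with no overlap between neighbours. For HMOX1 the 37 °C group stood alone at the bottom, and 40 °C, control and inhibitor overlapped. For the brightest NQO1 probe set the order was 37 °C, control, 40 °C and inhibitor, with control and 40 °C overlapping. The second NQO1 probe set placed control lowest, 0.11 under 37 °C without overlap, then 37 °C, 40 °C and inhibitor. The brightest ME1 probe set formed a low pair, 37 °C and 40 °C, which did not overlap, and a high pair, inhibitor and control, which did, over 5.13-fold. In the dimmer ME1 probe set 40 °C lay under 37 °C with overlap, and control lay under inhibitor without overlap. GCLM ranged over 3.29-fold and GCLC over 3.08-fold, mostly between the experiments. TXNRD1 ranged over 2.15-fold, OSGIN1 over 1.95-fold and HMOX1 over 1.52-fold. TXN varied least among the 10, over 1.24-fold.

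The tested genes most like SRXN1 over the 12 arrays, by Pearson's r and outside the members, were DYRK2 (0.9977), PHLDA2 (0.9975), TNFAIP3 (0.9962), CIC (0.9961) and MMP19 (0.9961). In each the group means rose from both temperature groups through control to inhibitor, TNFAIP3 for example from 9.07 at 37 °C to 10.93. The 12 points form 4 groups, so these values mostly describe the group means.

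Regulators of the pathway were measured as well. NFE2L2, which encodes NRF2 itself, differed by 0.13 at 40 °C (SE 0.05, adjusted p = 0.0598) and by 0.05 with the inhibitor (SE 0.06, adjusted p = 0.531). The first value passed in the fit of all 12 arrays (0.0481), with the 50th percentile filter, array weights, trend and robust eBayes or the mean of its 2 probe sets (0.00193 to 0.0492), and without replicate 2 at 40 °C (0.0365). KEAP1, its inhibitor, rose by 0.24 (SE 0.05, adjusted p = 0.00541) and 0.41 (SE 0.07, adjusted p = 0.00197). SQSTM1, an autophagy receptor that binds KEAP1 and is itself an NRF2 target, rose in both by 0.56, from 11.02 ± 0.02 to 11.58 ± 0.05 at 40 °C and from 12.68 ± 0.06 to 13.24 ± 0.01 with the inhibitor, and all 5 of its probe sets were called higher in both. KEAP1 was called in neither comparison with the spike covariate (0.17, adjusted p = 0.236, and 0.43, adjusted p = 0.31), and SQSTM1 was not called with the inhibitor (0.66, adjusted p = 0.108). BACH1, the repressor, differed by -0.06 (SE 0.06) and 0.02 (SE 0.07) and was not called. Its only probe set was dim, with group means of 5.16 to 5.22, below the 50th percentile filter of 5.78. Of 18 regulators tested, 7 were higher and 0 lower at 40 °C, among them PGAM5 (1.48-fold), a KEAP1-bound phosphatase, and MAFF (1.34-fold), a small MAF partner, although another probe set of each differed the other way, by -0.18 and -0.03. Under that covariate PGAM5 differed by 0.32 (adjusted p = 0.11) and MAFF by 0.40 (0.0737), and 1 regulator was called higher. The count of 0 was 1 at an unadjusted p under 0.05, 1 with probe sets averaged and 2 with trend and robust eBayes. With the inhibitor 9 were higher and 2 lower (1 without control replicate 1 or 3, or inhibitor replicate 1 or 3), with ATF4 1.62-fold lower and DPP3, a KEAP1-binding peptidase, 1.60-fold higher.

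Other genes of glutathione metabolism went both ways. At 40 °C 8 of 20 were higher and 3 lower. SLC7A11, the cystine transporter, fell 1.56-fold and GSTM3, a glutathione transferase, 1.49-fold, while GLRX, glutaredoxin, rose 1.52-fold. Without replicate 3 at 37 °C 5 were higher. Averaging its 3 probe sets gave GSTM3 a difference of -0.16 (adjusted p = 0.0699). With the inhibitor 9 were higher and 8 lower. SLC7A11 then rose 1.76-fold, from 9.35 ± 0.07 to 10.16 ± 0.02, and MGST3, a microsomal transferase, 1.37-fold, while GSTK1 fell 1.45-fold, although averaging its 3 probe sets gave -0.14 (adjusted p = 0.0956).

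Among 14 other thioredoxin and peroxide genes 4 were higher and 3 lower at 40 °C, with SESN2, a stress-induced sestrin, 1.49-fold, SOD1, the cytosolic superoxide dismutase, 1.32-fold and PRDX1, a peroxiredoxin, 1.25-fold higher. With the inhibitor 4 were higher and 6 lower. SESN2 fell 3.02-fold, TXNIP, the thioredoxin-binding protein, 1.49-fold and SESN1 1.40-fold. The higher count was 2 without control replicate 2 or 3, or inhibitor replicate 1 or 2. Of 10 genes on the NADPH list, not all of which make NADPH themselves, 2 were higher and 1 lower at 40 °C. The mitochondrial malic enzyme ME2 (1.25-fold) and the pentose phosphate enzyme TKT (1.23-fold) were up, and IDH2 (1.14-fold) was down. On that list 4 were higher and 4 lower with the inhibitor. PGD, of the pentose phosphate pathway, then rose 1.63-fold, while MTHFD2 and IDH1 fell 2.47-fold and 2.40-fold.

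In the list of quinone, aldehyde and xenobiotic metabolism 5 of 13 were higher and 3 lower at 40 °C, and 4 higher and 2 lower with the inhibitor. ABCC3, an exporter of conjugates, rose in both, 2.72-fold from 5.33 ± 0.13 to 6.78 ± 0.10 and 3.00-fold from 7.21 ± 0.08 to 8.80 ± 0.15. Both of its probe sets were called with the inhibitor, but only 1 of 2 at 40 °C, where the other differed by 0.20. At 40 °C the heme transporter SLC48A1 rose 1.64-fold (1 of its 4 probe sets was called) and PTGR1 1.48-fold. With the inhibitor EPHX1, an epoxide hydrolase, rose 1.65-fold and UGDH fell 1.69-fold. Of 13 heme and iron genes 1 was higher and 2 lower at 40 °C, CPOX up 1.31-fold, TFRC, the transferrin receptor, down 1.38-fold and FECH, ferrochelatase, down 1.32-fold. Without replicate 2 at 37 °C 2 were higher, and without replicate 1 at 40 °C 4 were lower. With the inhibitor 4 fell, among them the biliverdin reductases BLVRB (2.33-fold) and BLVRA (1.45-fold), and 1 rose, CYB5R3 (1.20-fold). The lower count was 2 without control replicate 3 or inhibitor replicate 1. The CYB5R3 probe sets disagree, and their mean differed by -0.037. With the spike covariate no list had more than 1 gene called in either direction with the inhibitor, and of the genes named here SESN2, MTHFD2, ABCC3 and BLVRB were still called. At 40 °C that covariate left 2 glutathione, 2 thioredoxin and peroxide, 1 NADPH and 0 heme and iron genes called higher, and 0 NADPH and 0 quinone, aldehyde and xenobiotic genes called lower. TKT then differed by 0.13 (adjusted p = 0.3), and PRDX1 (0.0637), IDH2 (0.0642) and CPOX (0.0564) were not called either. Against the backgrounds given above, no statement is made of any of these lists as a group, and their medians were -0.02 to 0.13 at 40 °C and -0.10 to 0.17 with the inhibitor, against 0.01 and 0.09 over all genes.

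**Figure D4:**
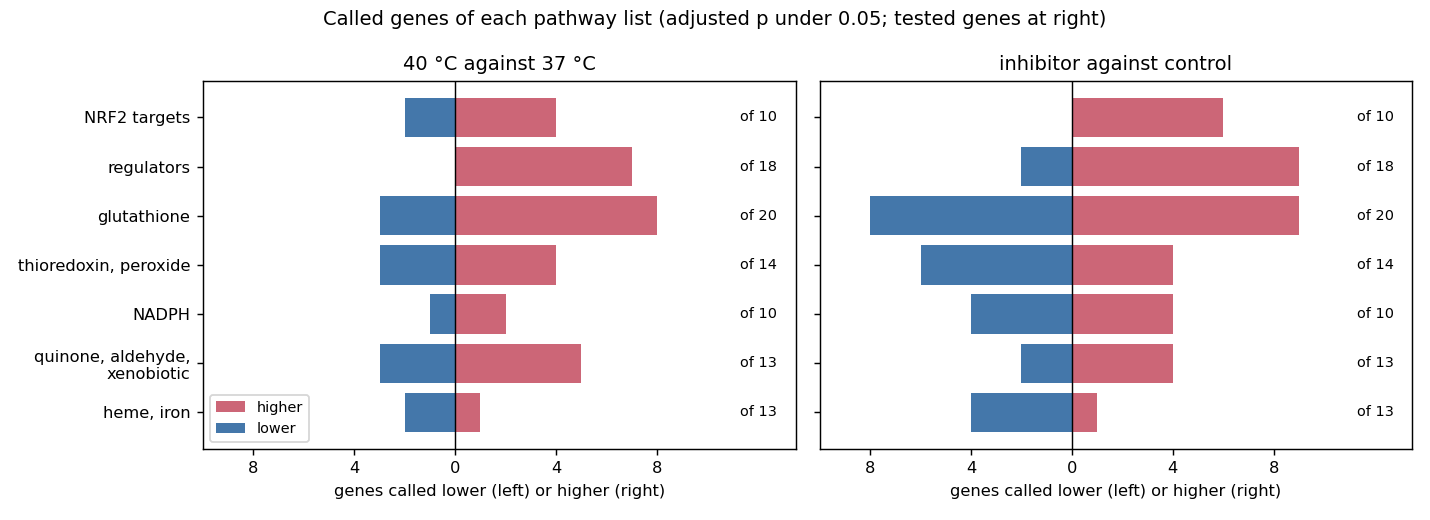
Number of genes called higher (right of 0) and lower (left of 0) in each pathway list at 40 °C against 37 °C and with the inhibitor against control, with the number tested at the right. With the inhibitor the NRF2 targets have 6 members higher and 0 lower, where 25.6% and 19.6% of all genes tested were. The regulators have 9 higher and 2 lower, and the glutathione list has 9 higher and 8 lower.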

How the data were processed

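The deposited values are the authors' log2 expression for 49395 probe sets on each of 12 PrimeView arrays. The scale was read from the values; background correction, normalization, software and build were not stated in the labels read here. GEO's platform annotation named the probe sets, 44994 with 1 symbol and 1832 with several. A gene was represented by its probe set of 1 symbol with the highest mean, and genes under the 30th percentile (control probe sets aside) were left out. Each comparison of 3 arrays against 3 was fitted alone with limma 3.58.1 in R 4.3.3 (lmFit, eBayes, two-sided, Benjamini-Hochberg threshold 0.05). Folds are 2 to the power of a log2 difference. The smallest p of an exact permutation test would be 0.1, so none was run. Named genes are the 10 members, NFE2L2, KEAP1, BACH1 and SQSTM1, the 3 called genes of smallest p in each pathway list, and the 5 genes most like the member of widest range. Members and lists were chosen with earlier results of these data known. Alternatives were a joint fit, a replicate block, other filters, the mean of or every probe set, quantile normalization, aligned medians, trend and robust eBayes, array weights, a spike covariate and leaving out each array. On simulated data with 200 of 13909 genes changed, 74% of changes of 0.5 were recovered for temperature and 54% for the inhibitor, and 100% and 90% of changes of 1. False calls were 5 of 155 and 8 of 133. In the data 39.3% and 45.2% of genes were called, a far larger share than was changed here, so these rates hold for the simulated setting only. Figures used matplotlib 3.10.9 in Python 3.11.15. The number of arrays limits the precision.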

Additional observations from a re-analysis of the deposited data

How the results depend on the processing

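The joint fit, other filters, quantile normalization, aligned medians, eBayes options and array weights kept the member counts within 1.5 times of those reported. At 40 °C the 2 members called lower became 1 with probe sets averaged and 0 with the spike covariate, and 1 to 2 when an array was left out; the higher count was 3 to 4. With the inhibitor the 6 called higher became 2 with the spike covariate, and 4 to 6 when an array was left out. Of the contrasts between both effects, 3 were called higher and 0 lower with the spike covariate. With probe sets averaged the GCLC and ME1 contrasts reversed, to -0.079 and 0.025, as did CYB5R3 with the inhibitor, to -0.037. Over all genes the spike covariate left 958 higher and 1320 lower at 40 °C (3007 and 2465 without it) and 59 and 188 with the inhibitor (3567 and 2721), and 890 and 1037 for the contrast (3208 and 2937). Array weights gave 5527 higher with the inhibitor. The cause was not tested. As given above, the spike level separated the groups of both comparisons. Counts of the pathway lists moved by over 1.5 times in 24 of 192 alternatives at 40 °C and 27 of 192 with the inhibitor.

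Replicate numbers showed no clear pairing of the arrays. Deviations of same-numbered arrays correlated at -0.13, -0.10 and 0.23 at the temperatures and at -0.19, -0.60 and -0.15 in the inhibitor experiment. Of 6 arrays in each experiment, 2 and 0 correlated best with their own number. With 3 arrays per group such values cannot exclude a pairing. With the replicate number as a block 3 members were called higher and 2 lower at 40 °C and 4 higher with the inhibitor, none lower there. Over all genes the block called 2710 higher and 2245 lower at 40 °C and 2581 and 2199 with the inhibitor.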
